A study of Mus musculus with 16 samples.

Results

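Serpina5, Serpina7, F2, Dio1, Hal and Cyp2c70 are 6 genes grouped here as liver-type genes. Their levels were measured in whole mouse pancreas with chronic pancreatitis. They were found by gene symbol in a table of 15156 genes. All 6 passed a filter on low values, which asked for at least 10 normalized counts in at least 4 of the 16 libraries, and 14220 genes passed it in all. The genes were chosen by their levels between genotype groups in an earlier analysis of these same libraries. Their differences between groups are therefore given as a description, and where the number of them past a threshold is given it supports nothing.

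Each of 4 groups held 4 mice, and every mouse received caerulein, a peptide that overstimulates acinar cells and injures the pancreas. Mice of 6 to 10 weeks were injected intraperitoneally with 50 ug/kg, 4 times at hourly intervals, and this was done 3 times a week over 3 weeks. The pancreas was taken 5 days after the last injection. The groups were wild type (WT, with no Cre transgene named), Daxxfl/flPdx1-CreTg (DC), Men1fl/flPdx1-CreTg (MC) and Daxxfl/flMen1fl/flPdx1-CreTg (DMC). Daxx encodes a histone chaperone and Men1 encodes menin, a chromatin-associated tumour suppressor. Pdx1-Cre acts in cells that descend from the pancreatic epithelium, so stroma, vessels and immune cells keep both genes. No group carried Cre without a floxed allele, and no pancreas without caerulein was analysed here, so in comparisons with WT the Cre transgene cannot be told apart from the loss of either gene. Comparisons among DC, MC and DMC hold Cre constant.

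The liver secretes many serpins, which are mostly inhibitors of serine proteases, together with the zymogens of blood coagulation. It also activates and clears thyroid hormone, breaks down histidine and makes bile acids. Serpina5 encodes protein C inhibitor, a serpin that acts on coagulation proteases. Serpina7 encodes thyroxine-binding globulin, a serpin that carries thyroid hormone in plasma instead of inhibiting a protease. F2 encodes prothrombin, the precursor of thrombin. Dio1 encodes a deiodinase that converts thyroxine to the active hormone, Hal encodes histidine ammonia-lyase, the enzyme of the first step of histidine breakdown, and Cyp2c70 encodes a cytochrome P450 that makes the muricholic acids of mouse bile.

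The genes lie on 6 chromosomes (build GRCm38, GENCODE annotation release 21). Serpina5 is at chr12:104101113-104106137 on the plus strand and Serpina7 at chrX:139079257-139085236 on the minus strand. F2 is at chr2:91625320-91636414 and Dio1 at chr4:107291465-107307169, both on the minus strand. Hal is at chr10:93488768-93519304 on the plus strand and Cyp2c70 at chr19:40153353-40187333 on the minus strand. All are protein coding, the table gives 1 value per whole gene, and 0 of the 6 gene bodies overlapped another annotated gene.

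Stretches before the starts of Serpina7 and Cyp2c70 are shown because each holds a match to a short motif of a factor of liver promoters. The sequences come from RefSeq on GRCm38.p6 and run 5′ to 3′ on the strand of the gene. For Serpina7 they are the 100 bases before the start, chrX:139085237-139085336. For Cyp2c70 the RefSeq start lies inside the gene as GENCODE gives it, so the 47 bases nearest to it are left off and the other 53 are shown, chr19:40187334-40187386. Capitals mark the motif matches.
Serpina7: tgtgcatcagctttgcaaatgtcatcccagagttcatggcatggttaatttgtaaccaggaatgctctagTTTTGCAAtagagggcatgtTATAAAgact
Cyp2c70: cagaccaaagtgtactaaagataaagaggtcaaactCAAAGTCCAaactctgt
The search covered 250 bases before to 50 after each RefSeq start, from which positions are counted, on both strands, for 5 motifs. They were the TATA box core TATAAA, the HNF4 core CAAAGTCCA, the FOXA core TGTTTAC, the C/EBP palindrome TTGCNNAA and the ONECUT core ATCGAT. Serpina7 held TTGCNNAA on the reverse strand at -30 and TATAAA at -10, counted from its first listed start. Counted from its second listed start, the same matches were at -47 and -27. Cyp2c70 held CAAAGTCCA at -64, which 0.475% of 32851 mouse promoter windows of the same length also held. TATAAA on the reverse strand was at -29 in Cyp2c70 and at -28 in Hal, and 13.6% of all windows held that motif on either strand. Hal also held TTGCNNAA at -150 and Serpina5 held it at -242, and 10.8% of all windows did. The letters TGTTTAC (3.65% of windows) and ATCGAT (0.925%) were in none of the 6 windows, and the F2 and Dio1 windows held no match to any of the motifs. The 6 windows thus shared no motif, and a match is a description of letters only.

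Recovered reads came to 13481063 to 23728309 per library. Levels are normalized counts, that is reads divided by the size factor of the library, and 3 reads equal 1.84 to 5.30 normalized counts. Men1 itself was 368 ± 61.3 in WT and 482 ± 61.9 in DC, against 132 ± 13.3 in MC and 168 ± 10.6 in DMC (mean ± SD, n = 4 each), with no overlap between the groups with and without the floxed allele. Daxx was 263 ± 65.0, 223 ± 15.6, 246 ± 26.1 and 182 ± 30.4 in WT, DC, MC and DMC, and the ranges of the groups overlapped, so the whole-gene count does not check the Daxx labels. The summed acinar markers ranged from 3832577 to 13522072 normalized counts, the most abundant of the marker lists. WT replicates 2 and 3 had the highest lymphoid marker levels, with a mean log2 level of 7.92 and 8.67 against 3.81 to 7.29 in the other 14 libraries. Y-linked genes were high in 7 libraries and low in 9: high in WT replicates 1 and 2, DC replicate 1, MC replicates 1 and 2, and DMC replicates 1 and 3.

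The 2 serpins of the set were low in WT and DC and higher in MC and DMC. Serpina5 was measured at 5.30, 9.95, 1.63 and 7.69 normalized counts in WT replicates 1 to 4, and at 7.35, 11.6, 2.28 and 3.30 in DC. It was at 17.2, 54.0, 69.7 and 66.0 in MC and at 136, 83.2, 28.7 and 177 in DMC. Every MC and DMC library lay above every WT and DC library, while WT and DC overlapped throughout. The group means were 6.14 ± 3.55 in WT and 6.14 ± 4.26 in DC, against 51.7 ± 24.0 in MC and 106 ± 64.4 in DMC (SD, n = 4). The level in WT rested on 23 reads over 4 libraries and that in DMC on 488. On the scale of log2 (normalized count + 1), the differences were -0.02 ± 0.63 for DC against WT, 2.89 for MC, 3.81 for DMC, and 0.92 for DMC against MC. The same standard error, from the fit of all genes, holds for each contrast of Serpina5. Fewer cells of a type and less RNA per cell cannot be told apart in such whole-tissue libraries, for this gene or any other here.

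Serpina7, the carrier of thyroid hormone, was at 14.1, 54.2, 3.26 and 12.1 in WT and at 10.4, 4.98, 4.56 and 3.30 in DC. It was at 78.4, 85.7, 65.7 and 74.7 in MC and at 67.4, 66.3, 169.8 and 88.6 in DMC. WT replicate 2 was the highest library without the Men1 deletion, and it still lay below the lowest library with it. The spread was narrow in MC (76.1 ± 8.33, SD, n = 4) and wide in WT (20.9 ± 22.7, SD, n = 4), where the highest library was 16.6 times the lowest. The log2 differences from WT were -1.21 ± 0.57 in DC, 2.39 in MC and 2.64 in DMC. DMC and MC differed by 0.25, which is below the standard error. WT replicates 2 and 3 moved these values most: in MC against WT the difference was 3.02 without the former and 1.79 without the latter.

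F2, the prothrombin gene, was measured with the smallest standard error of the 6. It was at 63.6, 57.9, 38.3 and 51.6 normalized counts in WT and at 26.9, 39.8, 29.6 and 35.2 in DC. In MC it was at 158, 130.2, 136 and 121, and in DMC at 110.2, 94.1, 248 and 99.6. MC and DMC were again above WT and DC in every library, and 3 of 4 DC libraries were below the lowest WT library. Group means were 52.9 ± 10.9, 32.9 ± 5.76, 136 ± 15.7 and 138 ± 73.8 in WT, DC, MC and DMC (SD, n = 4). DMC replicate 3 carried the high mean and SD of its group, and the other 3 DMC libraries lay below every MC library. The log2 differences were -0.66 ± 0.27 for DC against WT, 1.37 for MC, 1.27 for DMC, and -0.10 for DMC against MC.

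Dio1, the thyroid hormone deiodinase, was the one member high in DMC and not in MC. It was at 84.9, 35.3, 6.53 and 8.78 in WT, at 12.2, 2.49, 3.42 and 5.50 in DC, and at 6.13, 34.9, 26.3 and 37.0 in MC. In DMC it reached 98.4, 92.7, 163 and 222. All 4 DMC libraries lay above all 12 others, whereas MC and WT overlapped and had a log2 difference of 0.05 ± 0.72. The mean level was 144 ± 61.0 in DMC, 33.9 ± 36.4 in WT, 26.1 ± 14.1 in MC and 5.91 ± 4.40 in DC (SD, n = 4). DMC exceeded MC by 2.58 and WT by 2.63 on the log2 scale. The difference of DC from WT was -1.86, or -1.20 without WT replicate 1. The 2 high WT libraries were those with high Y-linked levels (mean 60.1, against 7.66 in the 2 low ones). In MC the order was the opposite, with 20.5 against 31.6.

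Hal, the histidine-degrading enzyme, had the widest range of the 6. It was at 179, 146, 8.97 and 293 normalized counts in WT and at 17.8, 4.98, 6.84 and 3.30 in DC. It was at 600.5, 346, 235 and 477 in MC and at 843, 262, 371 and 435 in DMC. WT replicate 3, at 8.97, fell within the DC range, and the other 3 WT libraries lay above every DC library. WT replicate 4, at 293, lay above the lowest MC and the lowest DMC library. The means were 157 ± 117 in WT and 8.22 ± 6.52 in DC, against 415 ± 158 in MC and 478 ± 254 in DMC (SD, n = 4). The log2 differences from WT were -3.58 ± 0.79 in DC, 2.06 in MC and 2.21 in DMC. Without WT replicate 3 they were -4.66, 0.98 and 1.14, so the size of the excess rested on that library. Without WT replicates 2 and 3 together they were -4.87, 0.77 and 0.92.

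Cyp2c70, the bile acid enzyme, was near the limit of detection in DC, with 11 reads over the 4 libraries. It was at 8.84, 56.1, 3.26 and 18.7 in WT, at 1.22, 3.32, 2.28 and 3.30 in DC, and at 59.2, 39.9, 40.5 and 44.8 in DMC. MC split into 2 high libraries, 234 and 143, and 2 low ones, 12.1 and 15.2. The high pair was the pair with high Y-linked levels, with a mean of 188 against 13.7. In DMC the same division gave 49.8 against 42.3, so the split seen in MC was not seen there. In WT it gave 32.4 against 10.97, though the high pair (8.84 and 56.1) and the low pair (3.26 and 18.7) overlapped. The single DC library with a high Y-linked level was at 1.22, against a mean of 2.97 in the other 3. The means were 21.7 ± 23.8 in WT and 2.53 ± 0.998 in DC, against 101 ± 108 in MC and 46.1 ± 8.998 in DMC (SD, n = 4). WT and MC overlapped. The log2 differences were -2.11 ± 0.86 for DC against WT, 1.81 for MC, 1.66 for DMC and -0.16 for DMC against MC. Single libraries moved them: MC against WT was 1.09 without MC replicate 1, DMC against WT was 1.06 without WT replicate 3, and DMC against MC was 0.57 without MC replicate 1 and -0.82 without MC replicate 3. Y-linked level and the other features of these animals cannot be told apart in 2 libraries against 2.

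**Figure D1:**
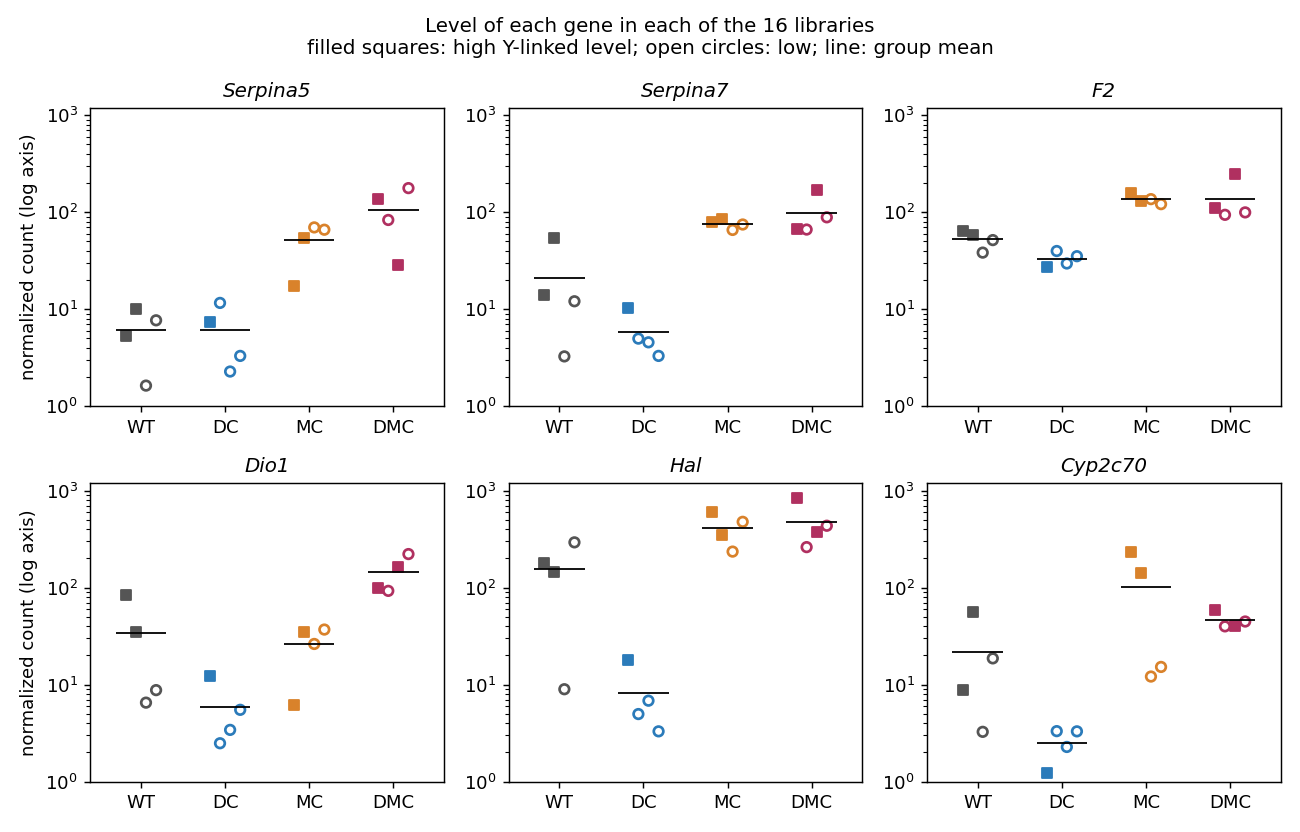
Normalized counts (log axis) of the 6 genes in each of 16 libraries by genotype group, with squares for libraries of high Y-linked level, circles for low, and a line at the group mean. Serpina5, Serpina7 and F2 were higher in every MC and DMC library than in any WT or DC library. Dio1 was higher in every DMC library (lowest 92.7) than in any other library (highest 84.9, in WT). Cyp2c70 split into 234 and 143 against 12.1 and 15.2 in MC.

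Per kilobase of exon the order of the 6 genes changed with genotype. In WT, Hal was first at 28.3 normalized counts per kilobase, followed by Dio1 at 17.2, F2 at 11.5, Cyp2c70 at 10.96, Serpina7 at 8.55 and Serpina5 at 2.84. The SD over WT libraries was 21.1 for Hal and 18.5 for Dio1, so these neighbours in the order did not differ beyond their spread. In DC, F2 was first at 7.16 ± 1.25 and Hal the fifth at 1.48 ± 1.17. In MC, Hal led at 74.8 ± 28.5, with Cyp2c70 at 51.0 ± 54.3 and the others between 13.2 and 31.1. In DMC, Hal at 86.1 ± 45.8 and Dio1 at 73.1 ± 31.0 led, and Cyp2c70 was last at 23.3 ± 4.54. Serpina5 moved from last in WT to the third in DMC, at 49.1 ± 29.8 per kilobase.

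The comparisons share groups, so the counts that follow are set side by side and are not independent of each other. Against WT, the median log2 difference of the 6 genes was -1.53 in DC, 1.94 in MC and 2.42 in DMC, beside -0.02 over all tested genes in each. In DC 5 of the 6 differences were below 0 by more than their standard error, and Serpina5 was at -0.02. In MC 5 were above 0 by more than their standard error, and Dio1, at 0.05, changed sign when single libraries were left out. In DMC all 6 were above 0 by more than their standard error. Between DMC and DC the median was 3.84, with a range from 1.93 for F2 to 5.80 for Hal, against 0.00 over all genes. Between DMC and MC it was 0.20, with 4 genes positive and 2 negative, against 0.01 over all genes. In DMC against MC, Dio1 differed by 2.58 ± 0.72 and Serpina5 by 0.92 ± 0.63. The differences of Serpina7, F2, Hal and Cyp2c70 were smaller than their standard errors.

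In limma with Benjamini-Hochberg adjustment over all tested genes, 0 of the 6 were past 0.05 in DC against WT, where 0.0211% of all genes were. There 5 of 6 had an unadjusted p under 0.05, as did 1665 of all 14220 genes. By edgeR 0 were called, and by DESeq2 Dio1, Hal and Cyp2c70. The number of all genes called by DESeq2 is not given. Serpina5 and F2 were past it in MC against WT (0.781% of all genes), and Serpina5, Serpina7 and F2 in DMC against WT (0.788%). In DMC against MC 0 of 6 were (0.00703%). There 1 had an unadjusted p under 0.05, as did 792 of all 14220 genes, and edgeR and DESeq2 called 0. In DMC against DC 5 of 6 were past the threshold, all but Cyp2c70 (0.534%). Because the genes were chosen by such differences, nothing is read from these counts. The groups did not overlap for 3 of 6 genes in MC over WT (4.16% of all genes), for 4 in DMC over WT (5.19%) and for all 6 in DMC over DC (3.55%). Only Dio1 did so in DMC over MC (2.14%). None of the 6 lay below WT in every DC library, which 1.77% of genes did. Leaving out 1 library gave 0 to 3 members past the threshold in each of MC and DMC against WT, and 3 to 6 in DMC against DC. In MC against WT 0 were past the threshold without WT replicate 3 or without MC replicate 2, 3 or 4. In DMC against WT 0 were when only the 2 groups were fitted or without DMC replicate 4.

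**Figure D2:**
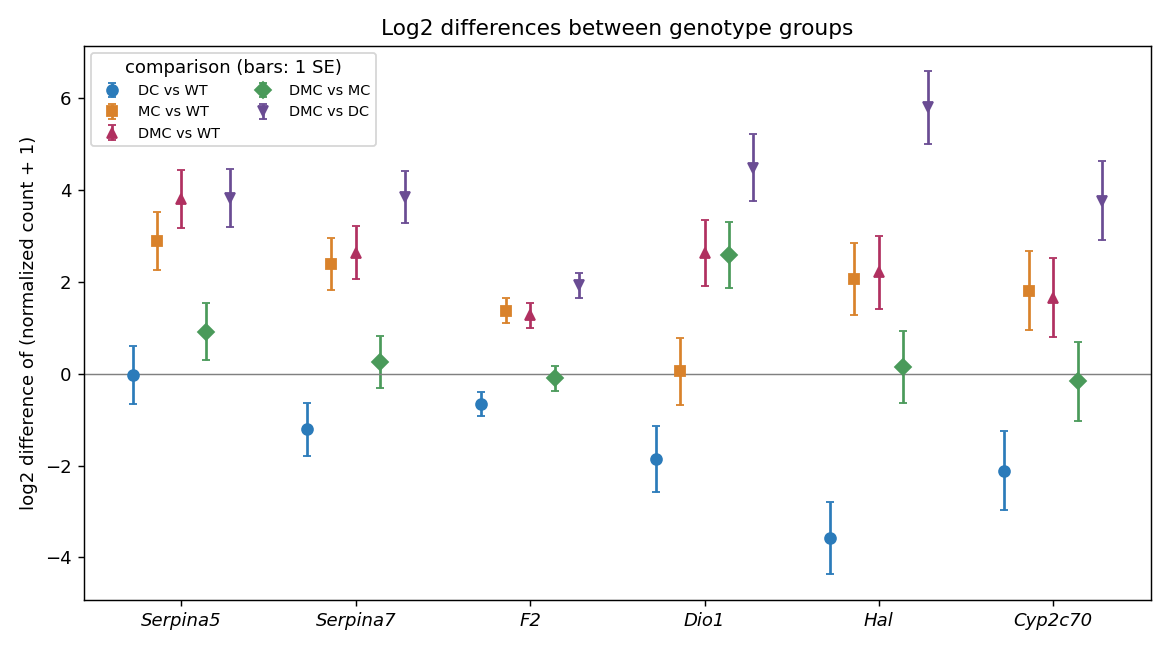
Log2 differences of (normalized count + 1) between genotype groups for each gene, with bars of 1 standard error (n = 4 per group, 1 fit over 16 libraries). DC lies at or below WT, with Hal lowest at -3.58, and MC and DMC lie above WT apart from Dio1 in MC at 0.05.

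The interaction contrast of both deletions was DMC minus DC minus MC plus WT. It sets the difference between DMC and DC beside the one between MC and WT. Cre was carried by DC, MC and DMC, while none was named for WT. A difference made by Cre therefore enters this contrast with the opposite sign and cannot be told apart from an interaction. The contrast was 4.44 ± 1.02 log2 units for Dio1, 3.73 ± 1.12 for Hal and 1.95 ± 1.22 for Cyp2c70. It was 1.46 ± 0.80 for Serpina7, 0.94 ± 0.89 for Serpina5 and 0.56 ± 0.38 for F2. All 6 values were positive, with a median of 1.71, beside 0.02 over all tested genes. Because the genes were chosen by their levels in these groups, nothing is read from the shared sign. For Hal the value combined a low level in DC with a like level in MC and DMC, and for Dio1 it combined a low level in DC with a high one in DMC. By limma 0 of 6 members, and 0% of all 14220 genes, were past an adjusted p of 0.05, while 1156 genes had an unadjusted p under 0.05. DESeq2 on the recovered reads called 2 members, and limma without WT replicate 3 called 1. The number of all genes called in these fits is not given, so nothing is read from them.

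To see whether the genes moved together, each was scaled to its mean and SD over the 16 libraries and the 6 scaled values were averaged per library. This mean level ran from -1.32 to -0.96 in DC and from -1.19 to 0.16 in WT, against 0.46 to 0.80 in MC and 0.69 to 1.03 in DMC. DC and WT overlapped only through WT replicate 3, which was lowest of the WT libraries for all 6 genes. Libraries with high Y-linked levels averaged 0.01 in WT against -0.75 in the others, 0.71 against 0.51 in MC, and 0.99 against 0.84 in DMC. The single DC library with a high Y-linked level was at -0.96 against -1.22 in the other 3.

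Within a genotype the common movement was weaker and passed no test. After each genotype mean was subtracted, 12 of the 15 pairs of members had a positive Pearson r over the 16 libraries, with a mean of 0.26. The values ranged from -0.32 for Serpina5 with F2 to 0.61 for Serpina7 with Hal, the latter with a Spearman rho of 0.50 and an r of 0.28 without the 2 farthest libraries. By permutation of libraries within genotype, 0 of 15 pairs had an unadjusted p under 0.05. The lowest for Pearson's r was 0.0832, for Serpina7 with F2 (permutation test, adjusted 0.403 over 15 pairs, r 0.47). The lowest for Spearman's rho was 0.0509, for Serpina7 with Dio1 (permutation test, adjusted 0.575, rho 0.55). Without WT replicate 3 the mean r was -0.01. The positive mean therefore rested on that library, in which all 6 were low.

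Among the 14214 other tested genes, the expression of Men1 itself had the most negative correlation with the mean level of the 6 genes over the 16 libraries, with r = -0.92, which the genotype groups share in. The 6 genes were chosen by their levels between these groups, and the Men1 deletion separates the same groups. Nothing is therefore read from this r or its rank. The same relation was then looked at within groups, a choice made after that rank was seen. With genotype means subtracted, r was -0.77 and rho -0.74 over 16 libraries, and r was -0.61 without WT replicate 3 and DC replicate 1. Men1 ranked 15 of 14214 genes from the most negative end in that comparison. WT replicate 3, with the lowest mean level of its group (-1.19), had the highest Men1 count of its group, 459 against 331 to 345. In DC, replicate 1 had the highest mean level (-0.96) and the lowest Men1 count (397, against 481 to 541). In MC, Men1 ran from 116 in replicate 2, which had the highest level, to 136 and 147 in replicates 3 and 4, which had the lowest. DMC did not follow this order: replicate 4 had the highest Men1 count (178) and replicate 3 the highest level (1.03). Within WT, replicate 2 had the highest level (0.16) and a Men1 count of 345, above those of replicates 1 and 4. These are descriptions of libraries that also differ in cell makeup, and what links the values was not tested.

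**Figure D3:**
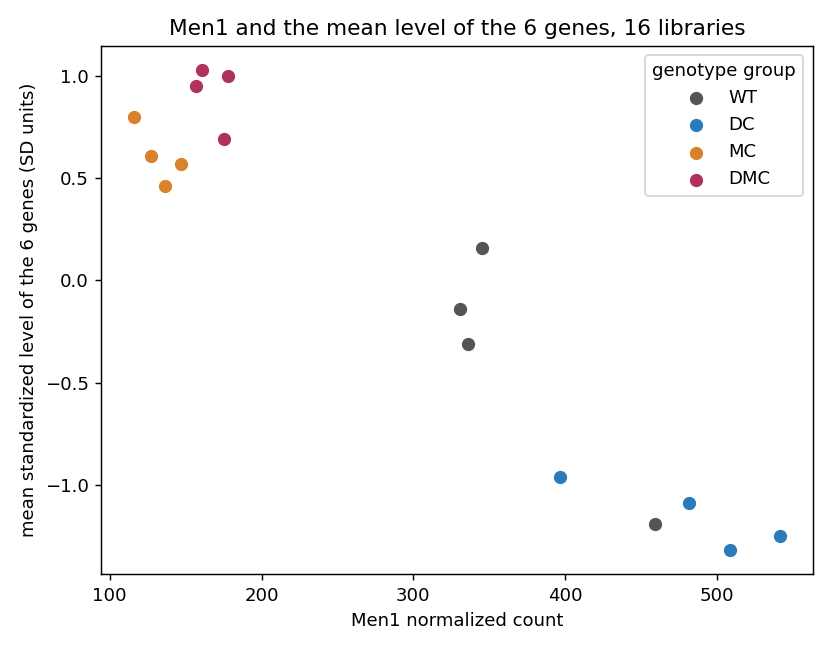
Mean standardized level of the 6 genes (SD units) against the Men1 normalized count, 1 point per library, coloured by genotype group. The MC and DMC libraries lie at 116 to 178 Men1 counts and levels of 0.46 to 1.03, and WT replicate 3 (459 counts, level -1.19) lies among the DC libraries.

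The non-member genes whose levels were most like the mean of the 6 over 16 libraries were Gde1 (r 0.92), Slc1a2 (0.91), Tmprss13 (0.91), Gapdh (0.91), Calcb (0.91) and Kif5c (0.90), with rho from 0.81 to 0.89. The genotype groups contribute to these values. Tmprss13, a transmembrane serine protease, was at 12.8 ± 8.70, 4.69 ± 3.21, 95.8 ± 37.0 and 77.1 ± 47.1 in WT, DC, MC and DMC (SD, n = 4). Slc1a2, a glutamate transporter, was at 184 ± 112, 64.6 ± 24.7, 349 ± 152 and 352 ± 108. Gapdh, the glycolytic enzyme often used as a reference gene, was at 1127 ± 298, 645 ± 88.4, 1240.0 ± 211 and 1368 ± 184, so it too was lowest in DC.

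Single members had their own nearest genes. Serpina5 was most like B3gat1 (r 0.95) and Th (0.93), and B3gat1 had 0 counts in every WT library. Serpina7 was most like Calcb (0.92) and Tmprss13 (0.91), and F2 like Serpina10 (0.93) and Tmprss13 (0.93). Dio1 was most like Endod1 (0.88) and Glp1r (0.87), the receptor of an incretin hormone. Hal was most like Kif5c and Gde1 (both 0.93), and Cyp2c70 like Gapdh (0.88) and Kif5c (0.83).

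Neighbouring genes were looked at for movement along the chromosome. Of 25 tested genes within 200 kb of a member, 8 of them near F2 and 3 near Serpina5, 0 passed the limma test in any of the 5 comparisons. Per comparison 1 to 3 had an unadjusted p under 0.05, beside 792 to 1883 of all 14220 genes. By edgeR 0 were called, and by DESeq2 1 in MC against WT and 0 elsewhere. Their median log2 difference was -0.08 in MC against WT and 0.00 in DMC against WT.

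The related pathways were described through 7 lists of serpins, coagulation, thyroid hormone handling, histidine breakdown, Cyp2 enzymes, bile acid genes and liver transcription factors. Together they held 110 tested genes besides the members. In MC against WT, 4 of the 110 rose and 1 fell (4.55%, beside 0.781% of all tested genes), and in DMC against WT 1 rose and 1 fell (1.82%, beside 0.788%). In DMC against DC 2 rose (1.82%, beside 0.534%), and 0 passed in DC against WT or in DMC against MC. In these last comparisons 22 and 10 of the 110 had an unadjusted p under 0.05, beside 1665 and 792 of all 14220 genes. There edgeR called 0 in both, and DESeq2 called 8 and 3. Which genes passed is given list by list, by limma with adjustment over all tested genes.

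Among 23 serpins tested, Serpina10, the inhibitor that acts with protein Z on a coagulation factor, was the most like them, ranking 10 of 14214 genes by its correlation with the members' mean (r 0.88). It was at 361, 428, 242 and 686 in WT, 230.1, 347, 235 and 295 in DC, 931, 748, 755 and 699 in MC and 656, 494, 1130 and 715 in DMC. It rose in DMC against DC by 1.39 ± 0.27 (limma adjusted p 0.0327), and the values against WT were 0.96 in MC and 0.84 in DMC, neither past the threshold. Its call was lost in 9 of 29 alternatives, among them without DC replicate 2, 3 or 4 and without DMC replicate 1, 3 or 4. Serpini1, the neural serpin neuroserpin, fell by 1.03 on the log2 scale in MC (adjusted p 0.0236) and by 1.12 in DMC (adjusted p 0.0154, limma). The first call was lost without WT replicate 1 or MC replicate 1 or 2, and the second without WT replicate 4 or DMC replicate 4. The liver serpins Serpina1b and Serpina1e were low, with group means of 6.94 to 12.7 and 1.54 to 21.7.

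Among 24 tested genes of coagulation and fibrinolysis, 0 passed against WT in any group, and edgeR and DESeq2 called 0. Of the 24, 7 in DC, 8 in MC and 10 in DMC had an unadjusted p under 0.05. Over all 14220 genes these numbers were 1665, 1813 and 1784. Serpina10, also on this list, was the only one to pass in DMC against DC. The list median against WT was 0.25 in DC, 0.19 in MC and 0.33 in DMC. Its most abundant members were F13a1, the transglutaminase that cross-links fibrin, with 606, 1147, 839 and 1125 in WT, DC, MC and DMC, and Ggcx, the vitamin K dependent carboxylase, with 574, 690.2, 635 and 583.

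The thyroid hormone list held 18 tested genes, of which 3 rose in MC against WT. Iyd, which recovers iodide from iodotyrosines, ranged from 32.9 to 77.8 in WT and from 17.8 to 66.0 in DC, against 141 to 230.4 in MC and 101 to 137 in DMC. It rose by 2.03 ± 0.33 in MC against WT (limma adjusted p 0.0102), a call lost without WT replicates 2 and 3 together. It also rose by 1.64 in DMC against DC (limma adjusted p 0.0361), a call lost in 11 of 29 alternatives, among them without DC replicate 2 or 3 or without any single DMC library. Dio2, the other activating deiodinase, rose by 2.64 ± 0.53 in MC (adjusted p 0.0317), where its mean was 52.6 against 8.32 in WT, 15.4 in DC and 11.7 in DMC. The highest group mean of these 2 deiodinases was in different groups, for Dio2 in MC and for Dio1 in DMC. The Dio2 difference between DMC and MC, -2.06 ± 0.53, did not pass (adjusted p 0.337, limma), and the Dio2 call in MC was lost without WT replicate 2 or 3 or without MC replicate 1, 3 or 4. Hr, a corepressor of the thyroid hormone receptor, rose by 1.09 ± 0.24 in MC (adjusted p 0.0477), a call lost in 16 of 29 alternatives. The thyroid hormone carrier Ttr was at 761, 1006, 1274 and 1572 in WT, DC, MC and DMC and did not pass in any comparison.

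Of the 7 other genes of histidine metabolism tested, 0 passed in any comparison by limma, edgeR or DESeq2, and 0 had an unadjusted p under 0.05. The most abundant were Slc38a3, a transporter of glutamine and histidine, with 2553, 1911, 2341 and 2224 in WT, DC, MC and DMC, and Hars, the histidyl-tRNA synthetase, with 997, 828, 883 and 937. Amdhd1, the third enzyme of the same breakdown path as Hal, was below the filter, with group means of 2.99 to 7.30. Of 11 other Cyp2 genes tested, only Cyp2j5, an epoxygenase of fatty acids, passed. It ranged from 13.9 to 26.5 in WT, from 20.5 to 47.3 in DC and from 24.7 to 35.5 in MC, against 53.6 to 89.2 in DMC, and rose by 1.90 ± 0.29 in DMC against WT (limma adjusted p 0.00849). Of 13 bile acid genes, Acox2, the peroxisomal oxidase of bile acid side chains, rose by 2.81 ± 0.50 in MC against WT (adjusted p 0.0178, limma). Its count was 5 reads in all WT libraries together, and the call was lost without MC replicate 4. Fitting only the 2 groups compared ended the calls of Serpini1, Dio2, Hr, Cyp2j5 and Acox2. Leaving out WT replicates 2 and 3 together ended those of Cyp2j5 and Acox2 as well (highest adjusted p over all alternatives 0.0742 and 0.0810). Of 18 transcription factors enriched in liver, 0 passed in any comparison by limma or edgeR. Per comparison 1 to 3 of them had an unadjusted p under 0.05, beside 792 to 1883 of all 14220 genes. DESeq2 called 3 in DC against WT and 0 elsewhere. The most abundant of the 18 were Nr5a2, at 1688, 1417, 1715 and 1205 in WT, DC, MC and DMC, and Gata4, at 691, 542, 831 and 594. Hnf4a was at 421, 267, 469 and 319 in the same order.

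**Figure D4:**
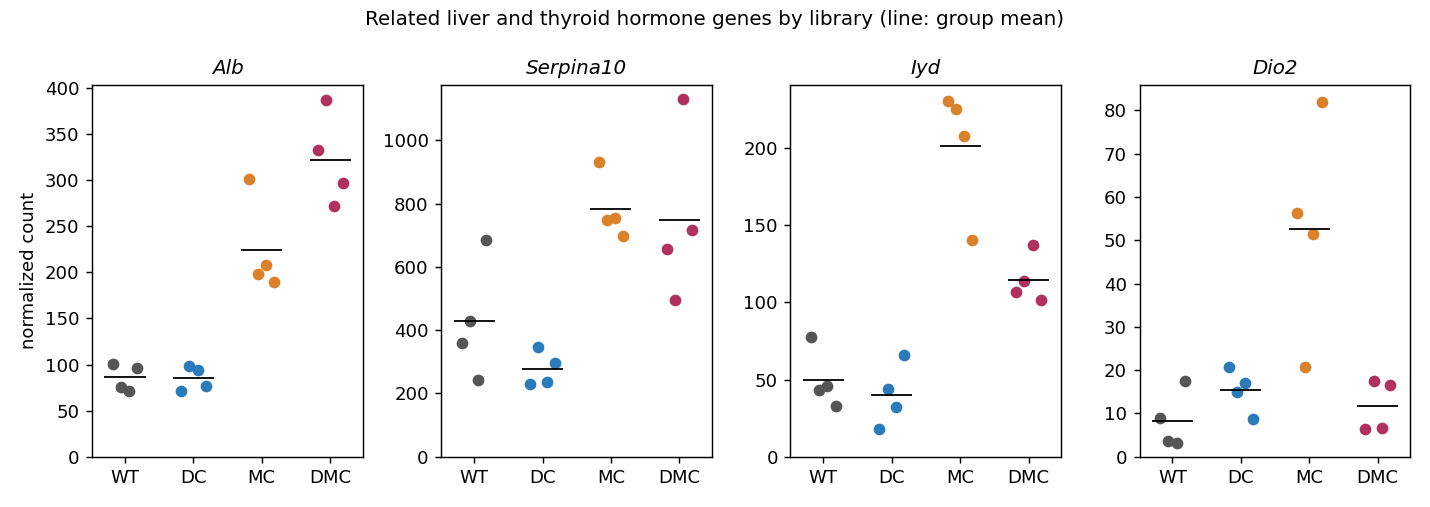
Normalized counts of Alb, Serpina10, Iyd and Dio2 in each library by genotype group, with a line at the group mean. Alb is at 71.0 to 101 in WT and DC together and at 190.1 to 388 in MC and DMC, while the mean of Dio2 is highest in MC, where its lowest library (20.6) lies within the DC range.

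Hepatocyte markers were examined as a whole, since the 6 genes were grouped as liver-type genes. Of 37 listed, 20 were in the table and 17 were tested, and Alb, the albumin gene, was the only one to pass in any comparison by limma or edgeR. DESeq2 on the recovered reads called more: 2 of the 17 in DMC against either WT or DC, and 1 in each of the other 3 comparisons. Alb was at 101, 75.9, 71.0 and 96.6 in WT, 71.6, 98.7, 94.6 and 77.0 in DC, 301, 198, 208 and 190.1 in MC and 332, 388, 272 and 297 in DMC. It rose by 1.36 ± 0.18 in MC (limma adjusted p 0.00365) and by 1.90 in DMC (adjusted p 0.000116) against WT, and both calls held in all 29 alternatives. Apoa1, an abundant hepatocyte transcript, was at 0 to 20.5 in all libraries and at 0 in 3 of them. Apoa2 was at 3.29 to 6.33 in WT and 4.15 to 6.12 in DC, against 7.35 to 12.1 in MC and 9.47 to 23.5 in DMC, with no overlap (limma adjusted p 0.375 and 0.0898 against WT). Ahsg, the fetuin gene, was at 3.29 to 19.6 in WT and 4.40 to 31.8 in DC. In MC it was at 26.3 to 50.8 and in DMC at 31.1 to 83.9, so both overlapped DC. Its log2 differences from WT were 1.88 ± 0.56 in MC and 2.16 in DMC (limma adjusted p 0.145 and 0.106). Apob was at 0.904 to 58.3 in WT and 1.66 to 54.7 in DC. In MC it was at 47.6 to 67.4 and in DMC at 16.98 to 91.3, highest in DMC replicate 2. Both MC and DMC overlapped WT and DC. The log2 differences of Apob from WT were 2.48 ± 0.95 in MC and 1.53 in DMC (limma adjusted p 0.285 and 0.531). The mean log2 level of the 17 markers was 5.13 to 5.77 in WT and 5.21 to 6.16 in DC, against 5.82 to 6.08 in MC and 5.86 to 6.62 in DMC, so it did not overlap between WT and MC or DMC. Their summed level was 3034 to 4628, 3448 to 4568, 4271 to 5628 and 4370 to 6557 in the same order. The median log2 difference of the 17 from WT was -0.09 in MC, where 8 of the 17 were above 0. In DMC it was 0.52, with 13 above 0. The part of such cells in the members' levels was not tested.

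Markers of other cell types moved with the 6 genes to different degrees. Of 10 tested gastric gland markers, 7 rose in MC and 6 in DMC against WT, among them Cym, a milk-clotting protease (log2 9.67 and 8.96), Pga5 (4.36 and 3.42) and Pgc (3.82 and 4.92), which encode pepsinogens. Their mean log2 level was 5.20 to 6.23 in WT and 4.69 to 6.34 in DC, against 8.72 to 10.8 in MC and 8.36 to 10.8 in DMC. Islet hormone and endocrine markers, 18 tested, had 0 calls by limma. Against WT 6 in MC and 10 in DMC had an unadjusted p under 0.05, beside 1813 and 1784 of all 14220 genes. DESeq2 called 1 and 4 of the 18, and edgeR 0. These markers had mean log2 levels of 7.39 to 9.16, 7.64 to 10.2, 8.03 to 10.2 and 8.91 to 10.9 in WT, DC, MC and DMC. Their median log2 difference from WT was 0.12 in DC, 0.99 in MC and 1.43 in DMC, with 15 of 18 markers above 0 in each of MC and DMC. Acinar markers, 12 tested, had 0 calls by limma or edgeR, with 0 to 1 per comparison at an unadjusted p under 0.05 or called by DESeq2, and a median log2 difference of -0.57 in DC, -0.35 in MC and -0.46 in DMC against WT. The part of any of these cell types in the members' levels was not tested.

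**Figure D5:**
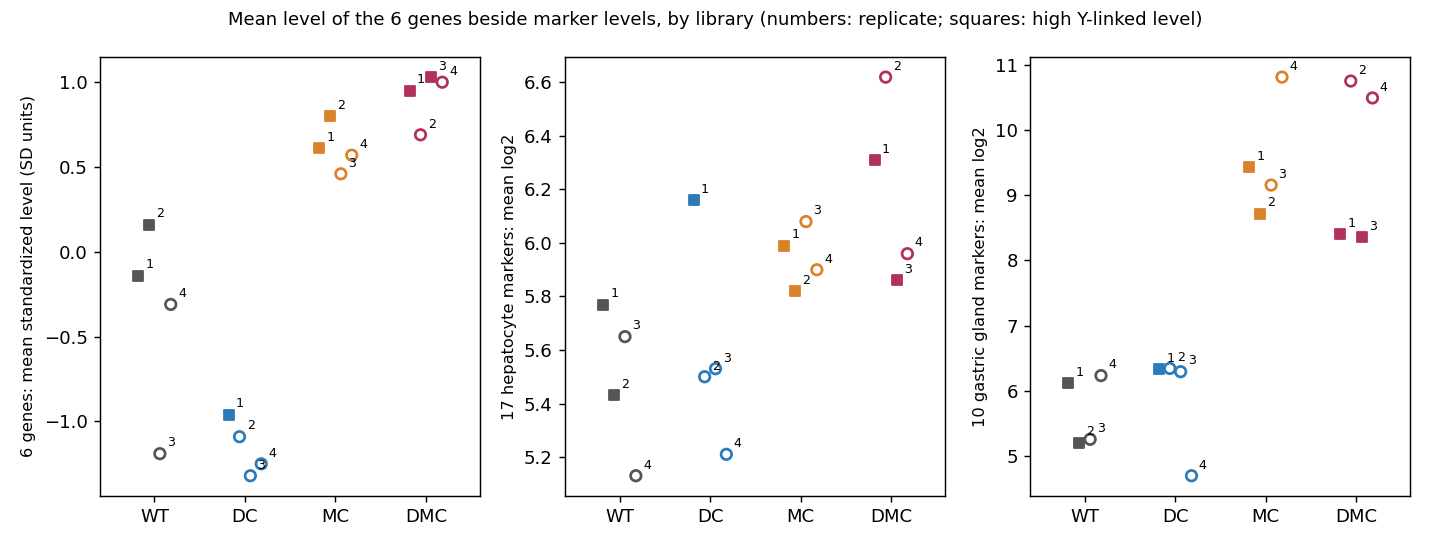
Mean standardized level of the 6 genes (left), mean log2 level of 17 hepatocyte markers (middle) and of 10 gastric gland markers (right), 1 point per library, numbered by replicate, with squares for high Y-linked level. The low WT replicate 3 on the left (-1.19) is not the lowest in hepatocyte markers (5.65 against 5.13 in replicate 4). By group these markers are at 5.13 to 5.77 in WT and 5.21 to 6.16 in DC, against 5.82 to 6.08 in MC and 5.86 to 6.62 in DMC. The part of such cells in the level of the 6 genes was not tested.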

How the data were processed

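The authors deposited normalized count signal for 15156 genes in 16 libraries, that is gene counts divided by a size factor per library. Per the submitters' processing notes, reads were aligned with STAR 2.6.0b and DESeq2 was used. The sources used here do not give the counter, its strand setting or the annotation. In every library 100% of the deposited values were multiples of 1 step (tolerance 0.01 reads), from which reads and size factors (0.566 to 1.63) were recovered.

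The log2 of (normalized count + 1) was fitted with limma 3.58.1 in R 4.3.3 (trend, not robust), all 16 libraries in 1 fit, for genes with at least 10 normalized counts in at least 4 libraries, with Benjamini-Hochberg adjustment within each comparison at 0.05. The scripts were tested on simulated data. Alternatives were other pseudocounts, filters and scalings, robust and weighted fits, edgeR 4.0.16 and DESeq2 1.42.0 on recovered reads, a replicate block, a Y-linked covariate and leaving out libraries. Correlations within genotype used 100000 permutations.

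The 6 genes and the gene lists were chosen with earlier results of these data known. Named genes were up to 3 per list past the threshold, else its 2 most abundant, the first 3 markers of a type, and the genes most like the members. Ahsg, Apob, Ttr, Serpina1b, Serpina1e, Amdhd1 and Hnf4a were named after their values were seen, and the Cyp2 list was corrected after values were seen (it had held other Cyp families), with no change in its calls. Replicates are separate mice. Counting limits cover counting error only.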

Additional observations from a re-analysis of the deposited data

Results flagged for a closer look

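F2 in DMC replicate 3 was at 248 normalized counts, far from the other 3 libraries of its group (94.1 to 110.2). The gap to the nearest library passed Dixon's 95% critical value for 4 samples. Of 24 sets of 4 libraries examined, 1 was flagged, and chance flags about 1 in 20. Serpina7 was also highest in that library, at 169.8, and Serpina5 was lowest of its group there, at 28.7. The cause was not tested.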

How the results depend on the processing

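Of 870 values of single members under 29 alternatives, 867 stayed within the spread between replicates. None, 0, changed sign from a main value larger than that spread, and 3 moved, all Hal without WT replicates 2 and 3. Changes of sign of smaller values are among the 867, as for Dio1 in MC against WT (-0.46 to 0.71). Other such changes were Cyp2c70 in DMC against MC (-1.13 to 0.57) and Serpina5 in DC against WT (-0.44 to 0.30). Hal, Serpina7, Dio1 and Cyp2c70 also changed by over 1.5 times in linear ratio without single libraries. Median differences of the 6 genes ranged from -2.17 to -1.03 in DC against WT, 1.22 to 2.38 in MC against WT, 1.59 to 2.65 in DMC against WT, 0.05 to 0.41 in DMC against MC and 3.17 to 4.14 in DMC against DC. The related genes called in MC against WT, 5 in the main fit, were 2 with a minimum of 30 normalized counts, 1 with only the groups compared, 8 with DESeq2 and 1 without WT replicates 2 and 3, and ranged from 2 to 6 when 1 library was left out. Those called in DMC against WT, 2 in the main fit, were 6 with library quality weights, 0 with only the groups compared, 7 with DESeq2 and 1 without WT replicates 2 and 3, and ranged from 1 to 4 when 1 library was left out. Members past the threshold for the interaction, 0 in the main fit, were 1 with library quality weights, 2 with DESeq2 and 1 without WT replicates 2 and 3, and 0 to 1 when 1 library was left out. The mean within-genotype r of 0.26 was -0.02 without WT replicates 2 and 3 and -0.01 to 0.37 when 1 library was left out, with the low end without WT replicate 3. The cause was not tested.

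With the replicate number as a block, 3 related genes were called in MC against WT, and 0, 1 and 5 members were past the threshold in MC against WT, DMC against WT and DMC against DC. The numbers do not pair the libraries: deviations of 24 same-numbered pairs had r from -0.37 to 0.38, and 1 of 16 libraries correlated best with its own number. Serpina5 in WT, and Cyp2c70, Serpina7 and Dio1 in DC, lie near 3 reads in several libraries, which limits their ratios.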
